A study of Oryza sativa with 6 samples.

Results

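LOC_Os10g18870 is a rice locus on chromosome 10 that the study's gene list describes as a dirigent protein. It was followed here as 1 gene of the 55982 loci with a single value in every library, together with the loci of the MSU annotation numbered from LOC_Os10g18700 to LOC_Os10g18990. Locus numbers follow the order along the chromosome and give no distance. It was chosen because its root transcript was lower in both overexpression lines, so its difference from the wild type is given below as a description and not as a test. Roots of rice cultivar ZH11 were compared in 3 genotypes, the WT and the independent transgenic lines OE15 and OE20, in which a cauliflower mosaic virus 35S promoter drives the coding sequence of the transcription factor gene *OsMYB305*. All seedlings, the WT included, were labelled as 14 days old and as grown in MS solution under low N (0.288 mM NH4NO3), whereas the study's methods describe hydroponics in Yoshida solution after transplanting. Which medium the sequenced roots came from was not settled here. Each genotype had 2 libraries, 6 in all. The labels do not say whether these came from separate cultures, so the tests measure only the spread between these libraries. Each OE line is 1 transgenic line, the promoter is active in most tissues, and roots were sampled in bulk.

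Dirigent proteins are secreted proteins that have no oxidising activity of their own. They guide the coupling of monolignol radicals, which laccases and peroxidases make, so that lignans such as pinoresinol form with a defined stereochemistry. In Arabidopsis roots a dirigent-domain protein, ESB1, is needed for orderly lignin deposition in the Casparian strip, the wall band that seals the endodermis. Plant genomes hold large dirigent families, and copies often stand next to each other on a chromosome.

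The values are FPKM, the fragments assigned to a locus, scaled to the length of its transcript and to the size of the library, so levels of different loci can be compared per length. FPKM keeps no read totals. The depth of the libraries relative to WT replicate 1, estimated from their low loci, ran from 0.983 to 1.36, the highest being WT replicate 2. For 20627 loci the 6 libraries averaged 1 FPKM or more, and over these loci libraries correlated on the log2(FPKM + 0.1) scale at a Pearson's r of 0.984 to 0.988 within a genotype and 0.965 to 0.976 between genotypes. *OsMYB305* (LOC_Os01g45090) gave 0.0388 and 0.0576 FPKM in WT roots, 150.2 and 148 in OE15 roots and 81.3 and 80.2 in OE20 roots, as the labels require. The root nitrate uptake genes *OsNRT2.1*, *OsNRT2.2* and *OsNAR2.1*, taken as root markers, were expressed in every library, from 5.81 FPKM for the lowest value of *OsNRT2.1* to 127 FPKM for the highest value of *OsNAR2.1*. Their levels were not equal between genotypes. In that order, the group means were 1.61-, 1.55- and 1.40-fold those of the WT in OE15 and 1.33-, 1.31- and 1.42-fold in OE20.

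LOC_Os10g18870 gave 53.5 and 49.6 FPKM in WT roots, 5.72 and 5.99 in OE15 roots and 4.58 and 4.64 in OE20 roots. The WT libraries were high, all 4 OE libraries were low, and no genotype overlapped with another. The WT mean was 51.5 ± 2.74 FPKM (SD, n = 2), and the line means were 5.86 ± 0.193 for OE15 and 4.61 ± 0.0414 for OE20, that is 8.80-fold lower in OE15 and 11.2-fold lower in OE20. On the log2(FPKM + 0.1) scale the difference from the WT was -3.11 in OE15 and -3.45 in OE20. In the WT root the transcript ranked 2505 of all loci by level, within the highest 4.47%, and in OE15 and OE20 it ranked 13564 and 14657. By the mean difference of both lines it was the locus with rank 25 among the falls of the 20627 tested loci. In whole roots, fewer cells that express a gene and less RNA per cell cannot be told apart.

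The contrast between the 2 OE lines was not used in choosing the gene. The LOC_Os10g18870 transcript was 1.27-fold higher in OE15 than in OE20, a difference of 0.34 on the log2 scale (standard error 0.065, 95% interval 0.19 to 0.49, adjusted p = 0.02 from limma), which is under the limit of 1.5-fold used for a call. At that adjusted p, 11.6% of all tested loci differed between the lines. The difference did not hold in every fit: the adjusted p from limma was 0.0699 and 0.111 without OE15 replicate 1 or 2, 0.0942 and 0.0752 without OE20 replicate 1 or 2, and 0.0133 to 0.0637 over the other alternatives with a test. *OsMYB305* itself was higher in OE15, with a log2 difference between the lines of 0.89 (limma adjusted p = 0.000886), and the line with more *OsMYB305* transcript had the higher LOC_Os10g18870 level of the 2 lines. A relation between the levels of the 2 transcripts was not tested.

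**Figure D1:**
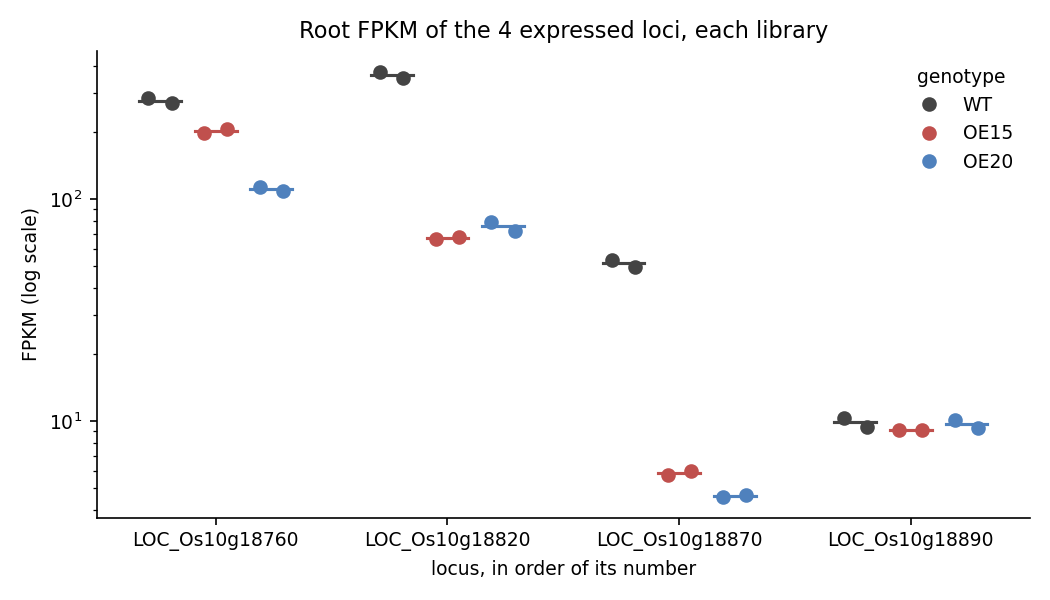
FPKM (log axis) of the 4 expressed loci numbered LOC_Os10g18700 to LOC_Os10g18990 in each library. Points are libraries, short lines are means of 2 libraries. For LOC_Os10g18870 the WT points lie at 49.6 and 53.5 and all OE points between 4.58 and 5.99, whereas LOC_Os10g18890 lies between 9.10 and 10.4 in all 6 libraries.

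The neighbourhood was then examined to see whether nearby copies fell with LOC_Os10g18870. The window holds 29 loci, of which 23 were listed at 0 in all 6 libraries, 2 were above 0 with a mean below 1 FPKM, and 4 had a mean of at least 1 FPKM. Besides LOC_Os10g18870 these were LOC_Os10g18760 and LOC_Os10g18820, both described as dirigent in the study's list, and LOC_Os10g18890, which that list does not hold. The study drew its list from these libraries, and so the direction of the dirigent copies is not independent of it. The minimum mean admits a locus that is high in the WT alone. Just inside it was LOC_Os10g18890, with a mean of 9.59 FPKM, and just outside it was LOC_Os10g18700, with 0.278 FPKM.

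LOC_Os10g18820 was the most abundant of the dirigent copies in the WT root, at 375 and 351 FPKM, rank 243 of all loci. It gave 66.1 and 67.4 FPKM in OE15 roots and 79.0 and 72.1 in OE20 roots. Both WT libraries lay far above all OE libraries, and the lines did not overlap with each other. The level was 5.43-fold lower in OE15 and 4.80-fold lower in OE20, log2 differences of -2.44 and -2.26 (limma adjusted p = 8.66e-07 and 2.12e-06, each with a standard error of 0.053). The lines differed by -0.18, OE15 minus OE20 (95% interval -0.30 to -0.05), which did not pass the adjusted test (adjusted p = 0.078 from limma).

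LOC_Os10g18760 was at 286 and 271 FPKM in the WT, rank 352 of all loci. It gave 199.8 and 207 FPKM in OE15 roots and 113 and 109 in OE20 roots, so that the WT was highest, OE15 intermediate and OE20 lowest, with no overlap. In OE20 it was 2.50-fold lower, a log2 difference of -1.32 (limma adjusted p = 8.87e-06). In OE15 the level was 1.37-fold lower, a log2 difference of -0.45 (standard error 0.040, adjusted p = 0.000465), which passed the test but not the limit of 1.5-fold. The lines differed from each other by 0.87 (standard error 0.040, 95% interval 0.78 to 0.97, adjusted p = 0.000108 from limma), above 1.5-fold, a call made for 2.06% of the tested loci.

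LOC_Os10g18890, the next expressed locus after LOC_Os10g18870, gave 10.4 and 9.44 FPKM in WT roots, 9.10 and 9.18 in OE15 roots and 10.1 and 9.34 in OE20 roots. The OE20 libraries overlapped with the WT, and those of OE15 lay just below it. Its log2 difference from the WT was -0.11 in OE15 (95% interval -0.29 to 0.06, adjusted p = 0.331 from limma) and -0.03 in OE20 (95% interval -0.20 to 0.15, adjusted p = 0.862). The intervals leave out a fall of the size seen at any of the 3 dirigent loci, the smallest of which was -0.45.

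Of the 3 expressed neighbours of LOC_Os10g18870, 1 was called lower in OE15, where 2.59% of all tested loci were, and 2 in OE20, where 1.64% were. The neighbour called in both lines was LOC_Os10g18820, and 1.08% of all tested loci were. No neighbour was called higher by limma in either line. None was higher at an unadjusted p under 0.05 either, a limit for which the share of all tested loci was not computed. Of all tested loci, 2.90% were called higher in OE15, 1.46% in OE20 and 1.03% in both lines. The number lower in OE15 was 2 when the fold limit was dropped, with LOC_Os10g18760 added, and 9.89% of all tested loci were then lower in OE15. The median log2 difference of the 3 neighbours was -0.45 in OE15 and -1.32 in OE20, beside 0.02 in both lines for all tested loci. Below the minimum, LOC_Os10g18700 gave 0.536 and 0.489 FPKM in WT roots, 0.0590 and 0.230 in OE15 roots and 0.113 and 0.245 in OE20 roots, values near the pseudocount that were not tested. Its 4 OE libraries also lay below both WT libraries. LOC_Os10g18790 did not exceed 0.00553 FPKM in any library.

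For the values further along the chromosome, the 10 tested loci with the nearest lower numbers (LOC_Os10g17790 to LOC_Os10g18370) and the 10 with the nearest higher numbers (LOC_Os10g19180 to LOC_Os10g20230) were also described, a choice made after the data were seen. None of these 20 flanking loci was called lower by limma in either line, but with 2.59% and 1.64% of all tested loci called lower, a count of 0 among 20 is near the background. At an unadjusted p under 0.05, 2 were lower and 2 higher in OE15, and 1 was lower and 5 were higher in OE20. The 5 include LOC_Os10g19910, which passed the minimum mean only through the OE20 libraries. The share of all tested loci at that unadjusted p was not computed, so nothing is read from these counts. Below the fold limit, LOC_Os10g19880 passed the adjusted test as lower in OE20 (-0.26, limma adjusted p = 0.0146) and LOC_Os10g20090 as higher in OE15 (0.17, limma adjusted p = 0.012). The nearest flanking locus on the lower side, LOC_Os10g18370, gave 5.75 and 5.91 FPKM in WT roots, 6.87 and 7.79 in OE15 roots and 5.78 and 6.24 in OE20 roots, and was higher in OE15 by 0.32 (limma adjusted p = 0.047), under the fold limit. LOC_Os10g18340, which at 451 and 470 FPKM in the WT was more abundant than the dirigent copies, gave 465 and 493 FPKM in OE15 roots and 497 and 503 in OE20 roots. The median log2 difference over the 20 flanking loci was 0.07 in OE15 and 0.02 in OE20. All 4 OE libraries lay below both WT libraries at 3 of the 4 loci of the window and at 2 of the 20 flanking loci, against 14.8% of all tested loci. The 3 were LOC_Os10g18870, chosen for its fall, and LOC_Os10g18760 and LOC_Os10g18820, which the study listed as changed in these libraries. The count for the window is therefore not independent of that choice, and nothing is read from it. LOC_Os10g19910 stood apart from the other flanking loci, a locus singled out after its values were seen. It gave 0.857 and 0.744 FPKM in WT roots, 0.989 and 0.780 in OE15 roots and 5.80 and 6.05 in OE20 roots, and it passed the minimum mean only through the OE20 libraries, so these values are a description and nothing is read from its test.

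**Figure D2:**
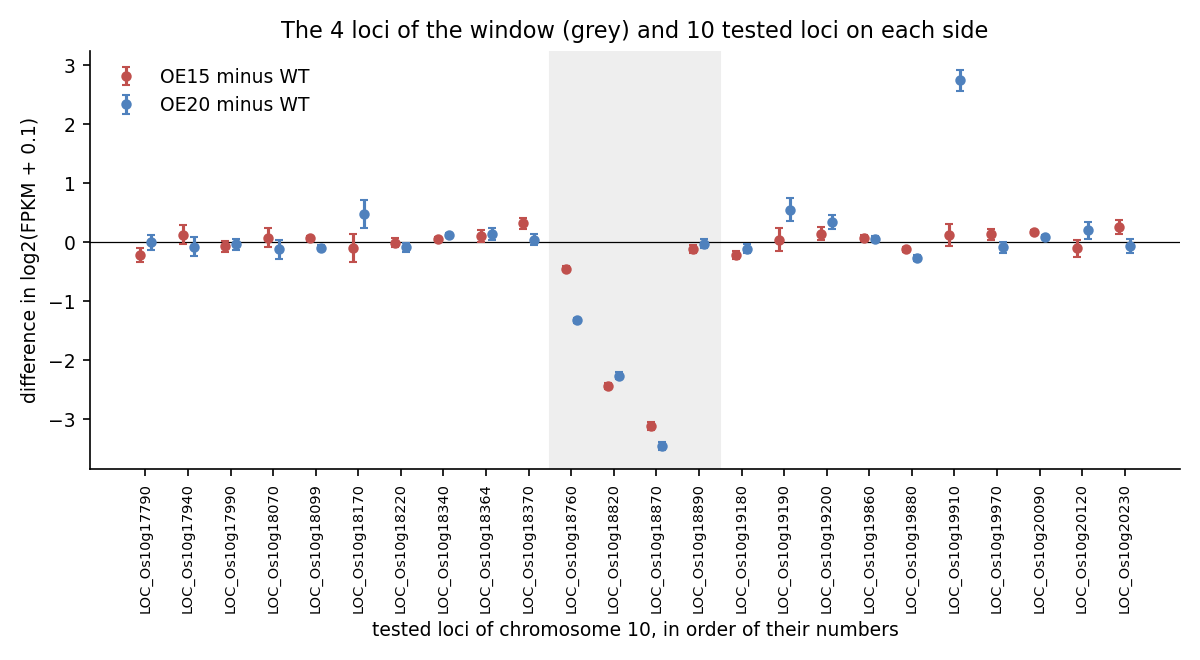
Difference from the WT in log2(FPKM + 0.1) for the 24 tested loci in order of their numbers, with the window in grey. Points are estimates for OE15 and OE20, and bars are standard errors from limma. The 3 dirigent loci lie between -3.45 and -0.45, and the other loci lie between -0.26 and 0.55 except LOC_Os10g19910, at 2.75 in OE20.

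The files do not say how reads that map to several copies were treated, so the levels of the dirigent copies are uncertain to the extent that they share sequence. Sums and ratios within a library were therefore also computed. The summed FPKM of the 3 dirigent loci was 714 and 671 in the WT, 272 and 280 in OE15, and 197 and 186 in OE20. The sum was 2.51-fold lower in OE15 and 3.62-fold lower in OE20 by the group means, 692 ± 30.4 (SD, n = 2) in the WT, 276 ± 6.17 in OE15 and 191 ± 7.87 in OE20. None of the copies was higher in an OE library than in a WT library. Because the 3 loci may differ in length, a sum of FPKM is not a sum of reads. Since LOC_Os10g18870 is part of the sum, no test is given.

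The copies did not fall by the same factor, and the make-up of the sum differed between all 3 genotypes. LOC_Os10g18870 made up 7.49% and 7.39% of the sum in the WT, 2.11% and 2.14% in OE15, and 2.33% and 2.50% in OE20. LOC_Os10g18820 made up 52.5% and 52.3% in the WT, 24.3% and 24.1% in OE15, and 40.1% and 38.9% in OE20. LOC_Os10g18760 had the larger share in the OE lines, 40.0% and 40.3% in the WT against 73.6% and 73.8% in OE15 and 57.5% and 58.7% in OE20, although its own level was lower in both lines. The ratio of LOC_Os10g18820 to LOC_Os10g18870 was 7.004 and 7.07 in the WT, 11.6 and 11.3 in OE15, and 17.3 and 15.6 in OE20, and the ratio of LOC_Os10g18760 to LOC_Os10g18870 was 5.34 and 5.45, 34.9 and 34.5, and 24.7 and 23.5. These ratios do not depend on the scaling of a library, and replicates lay closer to each other than to any other genotype. In absolute level, LOC_Os10g18820 accounted for 71.1% of the FPKM lost from the sum in OE15 and 57.3% in OE20, LOC_Os10g18760 for 18.0% and 33.3%, and LOC_Os10g18870 for 10.97% and 9.37%.

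**Figure D3:**
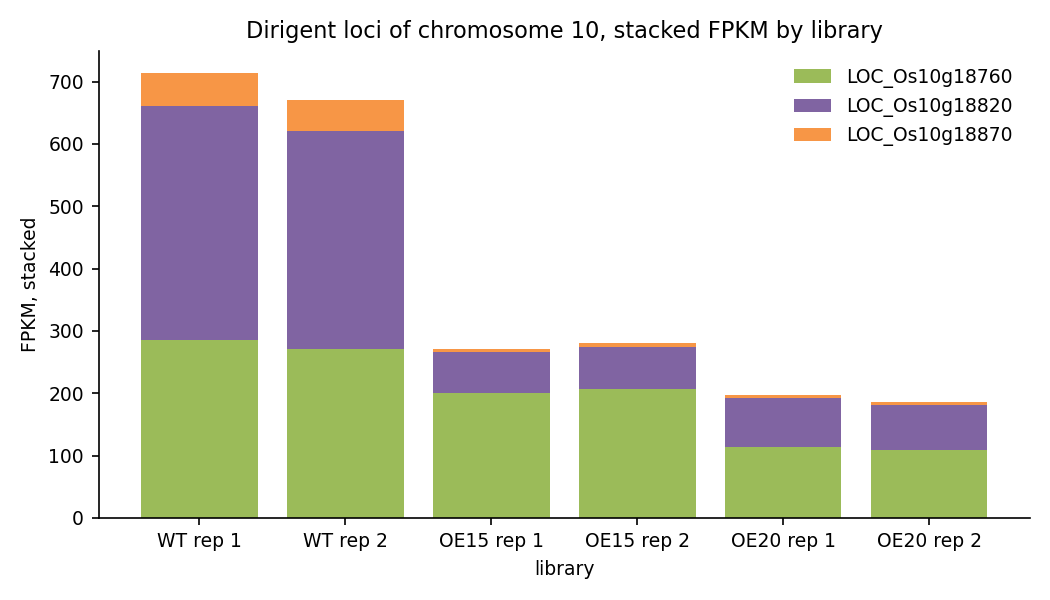
FPKM of the 3 dirigent loci of chromosome 10, stacked, in each of the 6 libraries. The full height is the sum, 671 to 714 in the WT, 272 to 280 in OE15 and 186 to 197 in OE20, and LOC_Os10g18760 is the largest part in all OE libraries.

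The study's list describes 2 further loci as dirigent, on other chromosomes. LOC_Os12g26380 (chromosome 12) gave 10.97 and 10.6 FPKM in WT roots, 3.22 and 3.83 in OE15 roots and 3.33 and 4.14 in OE20 roots. All OE libraries lay below the WT, and the 2 lines overlapped. It fell 3.06-fold and 2.89-fold, with log2 differences of -1.59 in OE15 (limma adjusted p = 0.000334) and -1.51 in OE20 (limma adjusted p = 0.000767), each with a standard error of 0.13. LOC_Os07g01600 (chromosome 7) gave 12.8 and 13.9 FPKM in WT roots, 6.57 and 5.94 in OE15 roots and 7.87 and 7.93 in OE20 roots, with no overlap between genotypes. Its log2 difference was -1.08 in OE15 (limma adjusted p = 0.000196) and -0.75 in OE20 (limma adjusted p = 0.00166). In the WT both were expressed at levels below LOC_Os10g18870. Of the 4 listed dirigent loci other than LOC_Os10g18870, 3 were called lower in OE15 and 4 in OE20, where 2.59% and 1.64% of all tested loci were, with median log2 differences of -1.34 and -1.42. The study picked these loci from its own changed genes, and the counts are not independent evidence of a fall, and dirigent loci outside the list carry no annotation in the sources used here.

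Enzymes of classes that can supply or oxidise monolignols were taken from the same list and from the wall genes the study names. These were 13 loci in all, again chosen by the study for their change. All 13 passed the minimum mean. In both lines, 6 were called lower and 1 higher, against 1.08% and 1.03% of all tested loci. Without WT replicate 2 the number called higher in both lines was 2. At an adjusted p under 0.05 with no fold limit, 10 of the 13 loci were lower and 3 higher in each line. The share of all tested loci lower on those terms was 9.89% in OE15, and the other shares were not computed. The median log2 difference was -0.71 in OE15 and -0.64 in OE20, against 0.02 over all tested loci. Of the 8 peroxidase precursors, 5 were called lower and 1 higher in both lines, beside the same 1.08% and 1.03% of all tested loci. Peroxidases can oxidise monolignols with hydrogen peroxide, but the substrates of these 8 were not tested. LOC_Os05g04500 gave 84.1 and 87.8 FPKM in WT roots, 44.5 and 45.4 in OE15 roots and 53.7 and 54.1 in OE20 roots, log2 differences of -0.93 and -0.67 (limma adjusted p = 1.86e-05 and 0.000135). LOC_Os06g35480 went the other way, with 54.3 and 52.6 FPKM in WT roots against 114.9 and 107.6 in OE15 roots and 106.8 and 104.4 in OE20 roots. It rose by 1.06 and 0.98 (limma adjusted p = 1.86e-05 and 6.08e-05). The peroxidase LOC_Os05g06970 was also higher, by 0.57 in both lines (limma adjusted p = 7.1e-05 in OE15 and 0.000135 in OE20), under the fold limit.

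Of the 3 laccases, copper enzymes that can oxidise monolignols with oxygen, *OsLAC10* (LOC_Os03g16610) was called lower in both lines. It gave 8.60 and 9.48 FPKM in WT roots, 4.58 and 5.03 in OE15 roots and 4.17 and 4.67 in OE20 roots, log2 differences of -0.90 and -1.02 (limma adjusted p = 0.00121 and 0.00128). *OsLAC14* (LOC_Os07g01110) was called lower in OE15 alone, at -0.70, and was at -0.48 in OE20, where it passed the test (adjusted p = 0.0285) but not the fold limit. The difference between the lines did not pass the test (limma adjusted p = 0.216). LOC_Os01g63200 went the other way, at 0.54 in both lines. It passed the test as higher than the WT (limma adjusted p = 0.00339 in OE15 and 0.00627 in OE20) but not the fold limit. *OsCCR1* (LOC_Os01g18110), a cinnamoyl-CoA reductase, was at -0.70 in OE15 and -0.51 in OE20. *OsCCoAOMT* (LOC_Os08g38910), a methyltransferase of monolignol synthesis, was at -0.49 and -0.64. Both passed the test in both lines, and each passed the fold limit in 1 line. The largest difference from the WT over the 13 loci was -1.60, for the peroxidase LOC_Os01g73200 in OE20, and thus smaller than that of LOC_Os10g18870 or LOC_Os10g18820 in either line. LOC_Os01g73200 was low in level, at 2.85 and 3.46 FPKM in WT roots and 0.984 and 0.948 in OE20 roots (standard error of the difference 0.23).

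**Figure D4:**
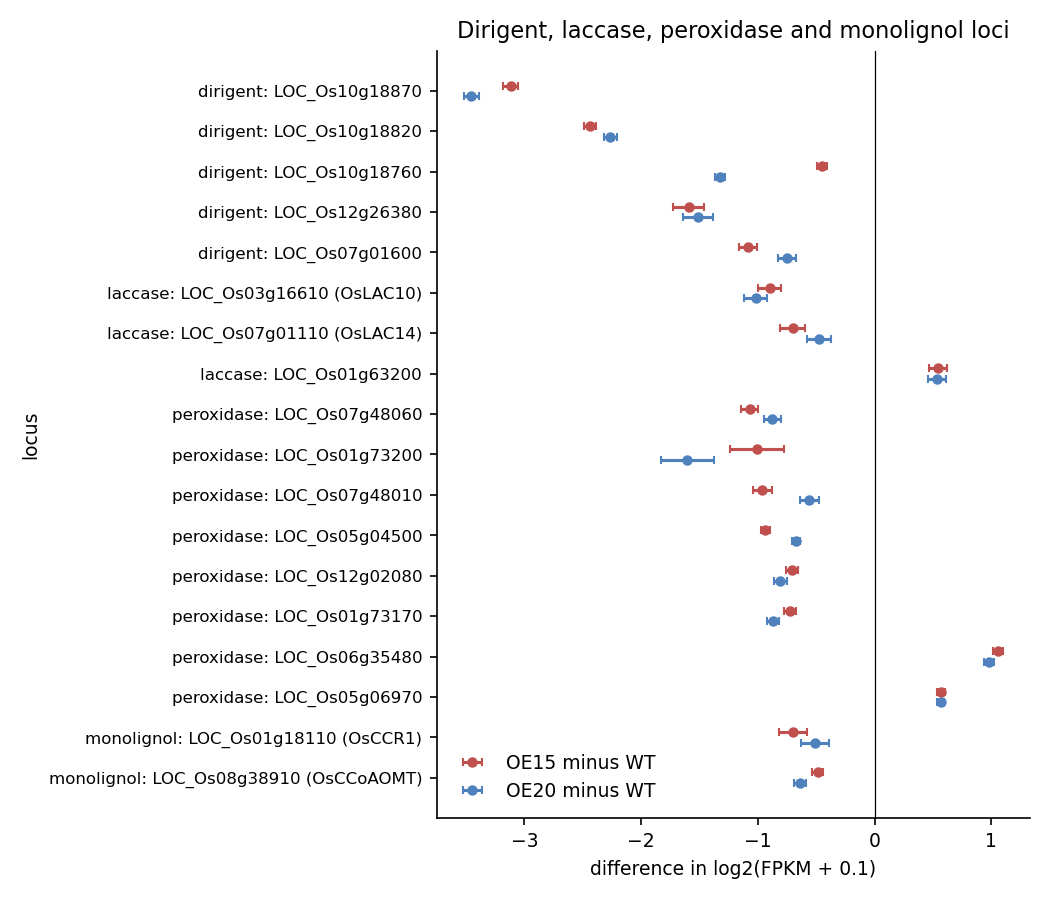
Difference from the WT in log2(FPKM + 0.1) for the 5 dirigent loci and the 13 laccase, peroxidase and monolignol loci of the study's lists. Points are estimates for OE15 and OE20, bars are standard errors from limma, and LOC_Os10g18870 lies farthest to the left at -3.11 and -3.45.

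The profile of LOC_Os10g18870 over the 6 libraries was compared with that of every other tested locus by the Euclidean distance of the log2(FPKM + 0.1) values after each locus was centred on its mean. Loci with a similar fall from the WT come first by construction, and both lines share the WT libraries. The nearest locus was LOC_Os01g38580, described in the study's list as a beta,beta-carotene 9,10-dioxygenase, at a distance of 0.489. It gave 3.20 and 3.54 FPKM in WT roots, 0.368 and 0.312 in OE15 roots and 0.166 and 0.299 in OE20 roots, much lower than LOC_Os10g18870 in level. LOC_Os06g29220, described as containing an erythronate-4-phosphate dehydrogenase domain, followed at 0.659. LOC_Os12g08760 (a carboxyvinyl-carboxyphosphonate phosphorylmutase), LOC_Os07g43260 (a SKP1-like protein) and LOC_Os01g17330 (a translation initiation factor) lay at 1.06, 1.13 and 1.17. None of these 5 is on chromosome 10. All of them except LOC_Os12g08760 had means below 1 FPKM in both lines, and so passed the minimum mean only through the WT libraries. At such levels the pseudocount of 0.1 FPKM understates a fall, and the distances depend on it. The neighbour LOC_Os10g18820 had rank 8, at 1.20, and LOC_Os12g26380 had rank 31, at 2.06. LOC_Os10g18760 and LOC_Os07g01600 had ranks 151 and 153, at 2.82 for both, and LOC_Os10g18890 had rank 5890. By Pearson's r over the 6 libraries, which ignores the size of a change, 36 loci were above 0.99 and LOC_Os10g18820 was at 0.987.

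**Figure D5:**
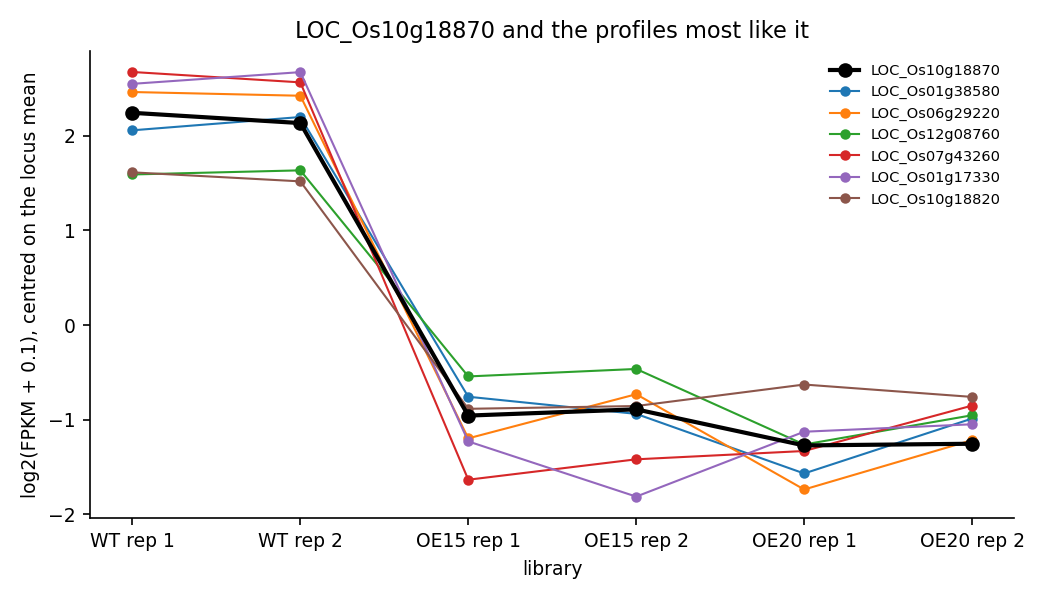
Log2(FPKM + 0.1) in each library, centred on the mean of each locus, for LOC_Os10g18870 (black), the 5 loci with the nearest profiles and LOC_Os10g18820. Lines join the values of a locus and have no other meaning, and in every locus shown both WT libraries lie above all 4 OE libraries.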

How the data were processed

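Root RNA-seq libraries of the WT, OE15 and OE20 were used, 2 per genotype, grouped by the sample titles. Per the labels, the authors used FastQC 0.11.8, Trimmomatic 0.38, HISAT2 2.1.0 and Cufflinks 2.2.1, and each library has its own FPKM values per locus as deposited. The genome build, strand setting and treatment of reads with several matches are not given in the sources used here. Locus names are those of MSU, and the RefSeq gene list used here does not pair with them, so annotations come from the study and no sequence or coordinate is printed.

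After 4 repeated names were left out, loci averaging 1 FPKM or more were tested with limma 3.58.1 (R 4.3.3) on log2(FPKM + 0.1), a scale that understates changes of low loci, in one fit of the 3 genotypes with a trend. P-values were Benjamini-Hochberg adjusted over 20627 loci, and a call needed a change above 1.5-fold with an adjusted p under 0.05. FPKM gives no counting interval.

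The gene, the window, the lists and the rules were chosen with earlier results of these data known. The genes named were LOC_Os10g18870, the expressed loci of its window, *OsMYB305*, the root markers, the dirigent, laccase, peroxidase and monolignol loci the study annotates, and the 5 nearest profiles. Flanking loci were added after the data were seen. Alternatives were pseudocounts of 1 and 0.01, no minimum or 5 FPKM, quantile or median-ratio scaling, a replicate block, separate fits, no trend, other limits, a wider window, the ratio of group means, and each library left out.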

Additional observations from a re-analysis of the deposited data

Results flagged for a closer look

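Of the 23 loci of the window and of the lists, 6 differed between the lines by limma's test of OE15 minus OE20 at an adjusted p under 0.05, where 11.6% of all tested loci did. The loci with the nearest profiles, chosen over all 6 libraries, and the flanking loci are not among the 23. For LOC_Os10g18870 the difference was 0.34 (adjusted p = 0.02, standard error 0.065), and leaving out any 1 of the 4 OE libraries took the adjusted p above 0.05. For LOC_Os10g18760 it was 0.87 (adjusted p = 0.000108, standard error 0.040), and stayed with an adjusted p at or under 0.00828 in all 15 alternatives. For LOC_Os07g01600 it was -0.33 (standard error 0.078, adjusted p = 0.0389), with an adjusted p between 0.0288 and 0.181 over its alternatives. The peroxidase loci LOC_Os05g04500 and LOC_Os07g48010 were at -0.26 (adjusted p = 0.00732) and -0.40 (adjusted p = 0.0254), and *OsMYB305* (LOC_Os01g45090) was at 0.89 (adjusted p = 0.000886). LOC_Os10g18870 and LOC_Os10g18760 were lower in OE20 and LOC_Os07g01600 and both peroxidase loci were lower in OE15.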

How the results depend on the processing

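LOC_Os10g18870 stayed below the WT in both lines under all alternatives. Its log2 difference was -2.94 in OE15 and -3.23 in OE20 with a pseudocount of 1, and -3.17 to -3.06 and -3.51 to -3.40 with each library left out in turn. The difference OE15 minus OE20 kept its sign but lost its adjusted p under 0.05 with separate fits (0.34, adjusted p = 0.0637), without a trend (0.34, adjusted p = 0.0536) and with an OE library left out (0.31 to 0.37, adjusted p = 0.0699 to 0.111). The neighbours called lower in OE15 and in both lines were 2 with no fold limit and 2 with a limit of 1.3, a value added after the data were seen, and 1 in the other alternatives. Some of these could not have added a neighbour. The wider window held no further tested locus, and the fit without a minimum still counted only neighbours averaging 1 FPKM or more. Left-out libraries turned the sign of values that were not called, LOC_Os10g18890 OE20 minus WT (-0.093 to 0.040, at 0.040 without WT replicate 1 and 0.03 without OE20 replicate 2) and LOC_Os12g26380 OE15 minus OE20 (-0.23 to 0.074, at 0.04 without OE15 replicate 1 and 0.074 without OE20 replicate 2). The cause was not tested, and the lone library left in a genotype was assumed to vary like the others. Deviations of same-numbered libraries from their group means correlated at 0.0226, 0.0314 and -0.0685, so no shared shift by replicate number was seen. These correlations cannot show whether same-numbered libraries were grown or prepared together. With the replicate block the calls over all loci numbered 1117 for OE15 and 630 for OE20, against 1134 and 641, and LOC_Os10g18870 between the lines was at 0.34 (adjusted p = 0.036). The block took the limma adjusted p of LOC_Os07g01600 between the lines to 0.0608, for a difference that was under the fold limit and not called in the main fit. It changed no call on the loci of the window or the dirigent list. With a minimum of 5 FPKM, where 14313 loci were tested, the calls numbered 586 for OE15 and 336 for OE20. The depth of each library is known only relative to the others, and 2 libraries per genotype give a weak estimate of the spread of a single locus.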
